A study of Mus musculus with 15 samples.

Results

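The Myc and Max network was followed by 9 genes, *Myc*, *Mycn*, *Max*, *Mxd1*, *Mxd3*, *Mxd4*, *Mxi1*, *Mnt* and *Mlx*, chosen by symbol from the 21669 named genes of an RNA-seq table of mouse B cells. All 9 were found, and 8 of them were among the 11299 genes expressed highly enough to be tested. *Mycn* was not. Naive B cells (nB) were CD43- cells from spleens of young adult female wild-type C57BL/6J mice, without stimulation or drug. Activated B cells (actB, sorted as B220+GL7+CD138-) and plasmablasts (Pb, sorted as CD138+) were obtained from a 3 day culture of such cells with LPS, IL2 and IL5, which held either DMSO, the solvent, or GSK343, an inhibitor of the histone H3K27 methyltransferase EZH2. There were 3 libraries in each of these 5 groups. For Pb grown with GSK343, however, the labels list IL6 among the cytokines where the protocol lists IL5, and if that is no slip, cytokine and drug cannot be told apart in Pb.

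The proteins of the network share a basic helix-loop-helix leucine zipper and bind DNA in pairs. Myc, N-Myc and L-Myc pair with Max at E-box sites and activate genes for ribosome production, nucleotide synthesis, glycolysis and the cell cycle. Mxd1, Mxd3, Mxd4, Mxi1, Mnt and Mga pair with the same Max at the same kind of site and repress, the Mxd proteins, Mxi1 and Mnt through Sin3 and histone deacetylases. Mlx is a second hub that pairs with the glucose-responsive factors Mlxip and Mlxipl and with some Mxd proteins and Mnt. In B cells, Myc is known as an early product of stimulation that drives growth and division, and its gene is a known target of repression by Blimp-1, the plasma cell factor encoded by *Prdm1*.

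Levels are given as RPKM, the reads of a gene per kilobase of its length, scaled to the depth of the library. The libraries held 19421830 to 26307413 reads, and a count of 3 reads corresponded to 0.114 to 0.154 RPM, the same unit before division by length. The first and second nB libraries differed by less than the sampling noise (chi-square per degree of freedom 0.00958) and were pooled and counted as 1 sample, so that n is 2 for nB and 3 elsewhere. Replicate 2 stood apart from replicates 1 and 3 in every cultured group, more so in actB (chi-square per degree of freedom 16.7 to 29.7, against 3.80 to 6.07 between replicates 1 and 3) than in Pb (7.64 to 11.4, against 3.58 to 3.68). Plasmablast markers set Pb apart, with *Prdm1* at 1.18 to 1.25 RPKM in nB, 29.9 to 32.6 in actB with DMSO and 116 to 125 in Pb with DMSO. All 5 such markers were higher in Pb than in actB, but between nB and actB 3 rose and 1 fell. The latter was *Sdc1*, which encodes CD138, at 5.12 to 5.22 RPKM in nB and 0.532 to 0.769 RPKM in actB with DMSO. The nB libraries also held RNA of other cells. The summed level of 8 T and NK cell markers was 28.4 to 30.4 RPKM in nB and 0.186 to 0.984 RPKM across the cultured groups, where *Cd3e* was at 0 to 0.0286 RPKM. The summed level of 9 myeloid markers was 195 to 239 RPKM in nB and 0.484 to 14.1 RPKM in the cultured groups, and *Lyz2* fell from 152 to 180 RPKM in nB to at most 1.13 RPKM. The part of these cells in the differences between nB and cultured cells was not tested. A bulk level also cannot tell fewer cells of a type from less RNA per cell. RPKM is a share of the reads of a library, so a change in the total RNA of a cell is not seen. The study describes an expansion of RNA content during differentiation, and no scaling used here corrects for it.

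The letters CACGTG, the E-box core that Myc-Max and Mxd-Max pairs are known to bind and which reads the same on both strands, were searched in the RefSeq promoters (GRCm38.p6, 250 bases before to 50 bases after each start site). Promoters were found for 8 of the 9 members and held the letters in 4 (*Max*, *Mxd4*, *Mnt* and *Mlx*), against 7.15% of all 32851 promoters and 12.0% of the 8964 tested genes with a promoter. The windows around them are shown because they place the network's own recognition letters beside the starts of its hub and of its antagonists; capitals mark CACGTG, each window is written 5′ to 3′ on the gene's strand, and a match describes the sequence only.
Max, chr12:76962231-76962278, minus strand: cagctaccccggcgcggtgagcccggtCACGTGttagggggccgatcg
Mxd4, chr5:34187909-34187956, minus strand: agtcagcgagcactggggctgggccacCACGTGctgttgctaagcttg
Mnt, chr11:74830774-74830821, plus strand: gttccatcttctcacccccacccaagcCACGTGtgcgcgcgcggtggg
Mlx, chr11:101087223-101087270, plus strand: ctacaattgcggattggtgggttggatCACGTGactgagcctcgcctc
The first letter of the motif lay 3 bases before the start site in *Max*, 219 in *Mxd4*, 123 in *Mnt* and 40 in *Mlx*. The letters were not in the windows of *Mycn*, *Mxd1*, *Mxd3* and *Mxi1*, which has 3 of them. *Max*, which carried the motif at its start, fell in Pb, whereas *Mxd4* and *Mlx* rose and *Mnt* fell, so the 4 genes did not share a direction.

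*Myc* (chromosome 15, 61816946 to 61821929 in mm9, plus strand) was highest in naive cells, lower in actB and lowest in Pb. All cultured cells were taken after 3 days, so levels soon after stimulation were not seen. Below, a change at activation means actB with DMSO against nB. Its level was 82.9 RPKM in the pooled nB library and 61.2 RPKM in nB replicate 3, 35.1, 32.7 and 33.5 RPKM in actB with DMSO, and 20.7, 19.6 and 23.0 RPKM in Pb with DMSO. No library of one stage overlapped another. As a share of the library, the level was lower in actB than in nB (a log2 fold change of -1.07 ± 0.12 SE, limma adjusted p = 2.59e-06). It was lower again in Pb than in actB (-0.68 ± 0.10, adjusted p = 7.84e-05). Both calls stood in all alternatives that were run. Here and below, fold changes are on the scale of log2(RPKM + 0.25), p-values are adjusted over all genes tested, and a gene is called at an adjusted p under 0.05.

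The other Myc genes were scarce. *Mycn* (chromosome 12, 12942902 to 12948720, minus strand) had 3 to 6 reads per library in nB and 0 to 4 in the cultured cells, at most 0.0727 RPKM, which is too low for a comparison. *Mycl*, which encodes L-Myc, was at 3.16 and 2.82 RPKM in nB and 0.425, 0.620 and 0.384 RPKM in actB with DMSO, a log2 fold change of -2.17. It passed the filter of at least 1 RPKM in at least 3 libraries only through nB, where it was high. Every cultured library had at most 0.836 RPKM, so this fall is given as a description without a p-value. *Mycl* did not differ detectably between actB and Pb (-0.17 ± 0.17, adjusted p = 0.417). *Myc* thus accounted for nearly all Myc family RNA in every library.

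*Max* (chromosome 12, 78038256 to 78063235, minus strand), the shared partner, did not follow *Myc* at activation and fell more than *Myc* did in plasmablasts. It was at 64.6 RPKM in the pooled nB library and 59.2 RPKM in nB replicate 3, and at 67.7, 66.9 and 62.4 RPKM in actB with DMSO. The 2 groups overlapped, and the difference was 0.08 ± 0.09 on the log2 scale (95% interval -0.11 to 0.28, adjusted p = 0.406). Pb with DMSO had 23.3, 18.8 and 22.0 RPKM, far below every earlier library. The change from actB to Pb was -1.61 ± 0.08 (adjusted p = 3.41e-09), which left Pb at 0.327 times the actB level. With GSK343 it was -1.65 ± 0.08 (adjusted p = 2.40e-09). This was the largest fall of any member between these stages.

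*Mxd4* (chromosome 5, 34516536 to 34530369, minus strand) encodes a Myc antagonist, and its RNA fell at activation and rose in plasmablasts. It was at 35.1 RPKM in the pooled nB library and 27.3 RPKM in nB replicate 3, then at 11.03, 17.3 and 10.6 RPKM in actB with DMSO, and at 34.8, 39.2 and 35.5 RPKM in Pb with DMSO. The actB libraries lay below both other stages, with replicate 2 the highest of them, and nB and Pb overlapped. The log2 fold changes were -1.27 ± 0.21 from nB to actB (adjusted p = 9.35e-05) and 1.51 ± 0.18 from actB to Pb (adjusted p = 1.06e-05). Pb and nB did not differ detectably (0.24 ± 0.21, 95% interval -0.21 to 0.68, adjusted p = 0.305).

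*Mxd1* (chromosome 6, 86597038 to 86619153, minus strand), also called Mad1 and known for rising as cells leave the cell cycle, had the same shape at a lower level. It was at 8.41 RPKM in the pooled nB library and 6.59 RPKM in nB replicate 3, at 3.89, 5.24 and 3.55 RPKM in actB with DMSO, and at 7.89, 7.86 and 7.48 RPKM in Pb with DMSO. Again the actB libraries lay below both other groups, which overlapped. The log2 fold change was -0.80 ± 0.15 from nB to actB (adjusted p = 0.000371) and 0.85 ± 0.14 from actB to Pb (adjusted p = 0.000111), and Pb and nB did not differ detectably (0.05 ± 0.15, 95% interval -0.28 to 0.39, adjusted p = 0.747).

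*Mxd3* (chromosome 13, 55426529 to 55431119, minus strand) is the family member known for expression in dividing cells, and it moved the other way at activation. It was at 1.10 RPKM in the pooled nB library and 1.55 RPKM in nB replicate 3, which rested on 33 to 46 reads, and at 10.02, 6.74 and 9.55 RPKM in actB with DMSO. The groups were far apart, at a log2 fold change of 2.51 ± 0.17 (adjusted p = 2.53e-08). Pb with DMSO had 11.4, 11.8 and 13.1 RPKM, a further 0.47 ± 0.15 (adjusted p = 0.0131), but that call was lost without actB replicate 2, the lowest actB library (0.30, adjusted p = 0.0544). With GSK343, Pb did not differ detectably from actB (0.01 ± 0.15, adjusted p = 0.938). The exons of *Mxd3* overlap 104 bases of *Prelid1* on the other strand, whose own change at activation was 1.398 and in Pb -0.17, and whether reads were counted by strand is not given in the sources used here.

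*Mxi1* (chromosome 19, 53384996 to 53450300, plus strand), another antagonist, rose at both steps, but its standard errors were the largest of the 8 tested members. It was at 3.09 RPKM in the pooled nB library and 2.84 RPKM in nB replicate 3, at 4.52, 6.72 and 4.39 RPKM in actB with DMSO, and at 7.56, 9.18 and 7.25 RPKM in Pb with DMSO. The 3 stages did not overlap, and replicate 2 was the highest library in each cultured group. The change was 0.74 ± 0.25 at activation (adjusted p = 0.0156) and 0.61 ± 0.22 from actB to Pb (adjusted p = 0.0257). The first call was lost without the pooled nB library, without nB replicate 3 or without actB replicate 2 (adjusted p 0.0536 to 0.0884), and the second without actB replicate 1, actB replicate 3 or Pb replicate 2 (0.0854 to 0.0922). The change from nB to Pb, 1.35 ± 0.25 (adjusted p = 0.00024), was called throughout.

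*Mnt* (chromosome 11, 74644422 to 74659227, plus strand), the most widely expressed antagonist, fell with *Myc*. It was at 26.2 RPKM in the pooled nB library and 20.1 RPKM in nB replicate 3, at 8.92, 9.02 and 8.83 RPKM in actB with DMSO, and at 6.95, 8.03 and 7.02 RPKM in Pb with DMSO. No stage overlapped another, but the step from actB to Pb was small. The log2 fold changes were -1.34 ± 0.10 (adjusted p = 1.01e-07) and -0.28 ± 0.09 (adjusted p = 0.0164). The second call was lost after median scaling (-0.17, adjusted p = 0.143), after quantile normalization (-0.13, 0.214), with edgeR (-0.22, 0.0546) and without Pb replicate 1 (-0.24, 0.0606) or Pb replicate 3 (-0.25, 0.0551).

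*Mlx* (chromosome 11, 100948591 to 100953521, plus strand), the hub of the glucose-responsive arm, rose in plasmablasts. It was at 25.7 RPKM in the pooled nB library and 24.5 RPKM in nB replicate 3, at 25.1, 20.8 and 24.5 RPKM in actB with DMSO, and at 40.3, 40.5 and 44.4 RPKM in Pb with DMSO. The nB and actB libraries overlapped (-0.10 ± 0.09, 95% interval -0.30 to 0.10, adjusted p = 0.337), and all Pb libraries lay above them (0.83 ± 0.08 against actB, adjusted p = 1.68e-06). Its exons overlap 385 bases of *Psmc3ip* on the other strand, which changed by 2.23 at activation and 0.08 in Pb. *Mlxip*, a glucose-sensing partner of Mlx, rose at activation (0.50 ± 0.16, adjusted p = 0.0146) and fell in Pb (-0.46 ± 0.15, adjusted p = 0.0141), but the first call was lost without the pooled nB library (0.46, adjusted p = 0.0859) and the second without actB replicate 2 (-0.28, 0.0538) and after median scaling (-0.35, 0.0558). *Mlxipl* was not tested. *Mga*, a Max partner of its own subfamily, fell at both steps, by 0.29 and then by 0.52 on the log2 scale (adjusted p = 0.00304 and 1.47e-05).

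**Figure D1:**
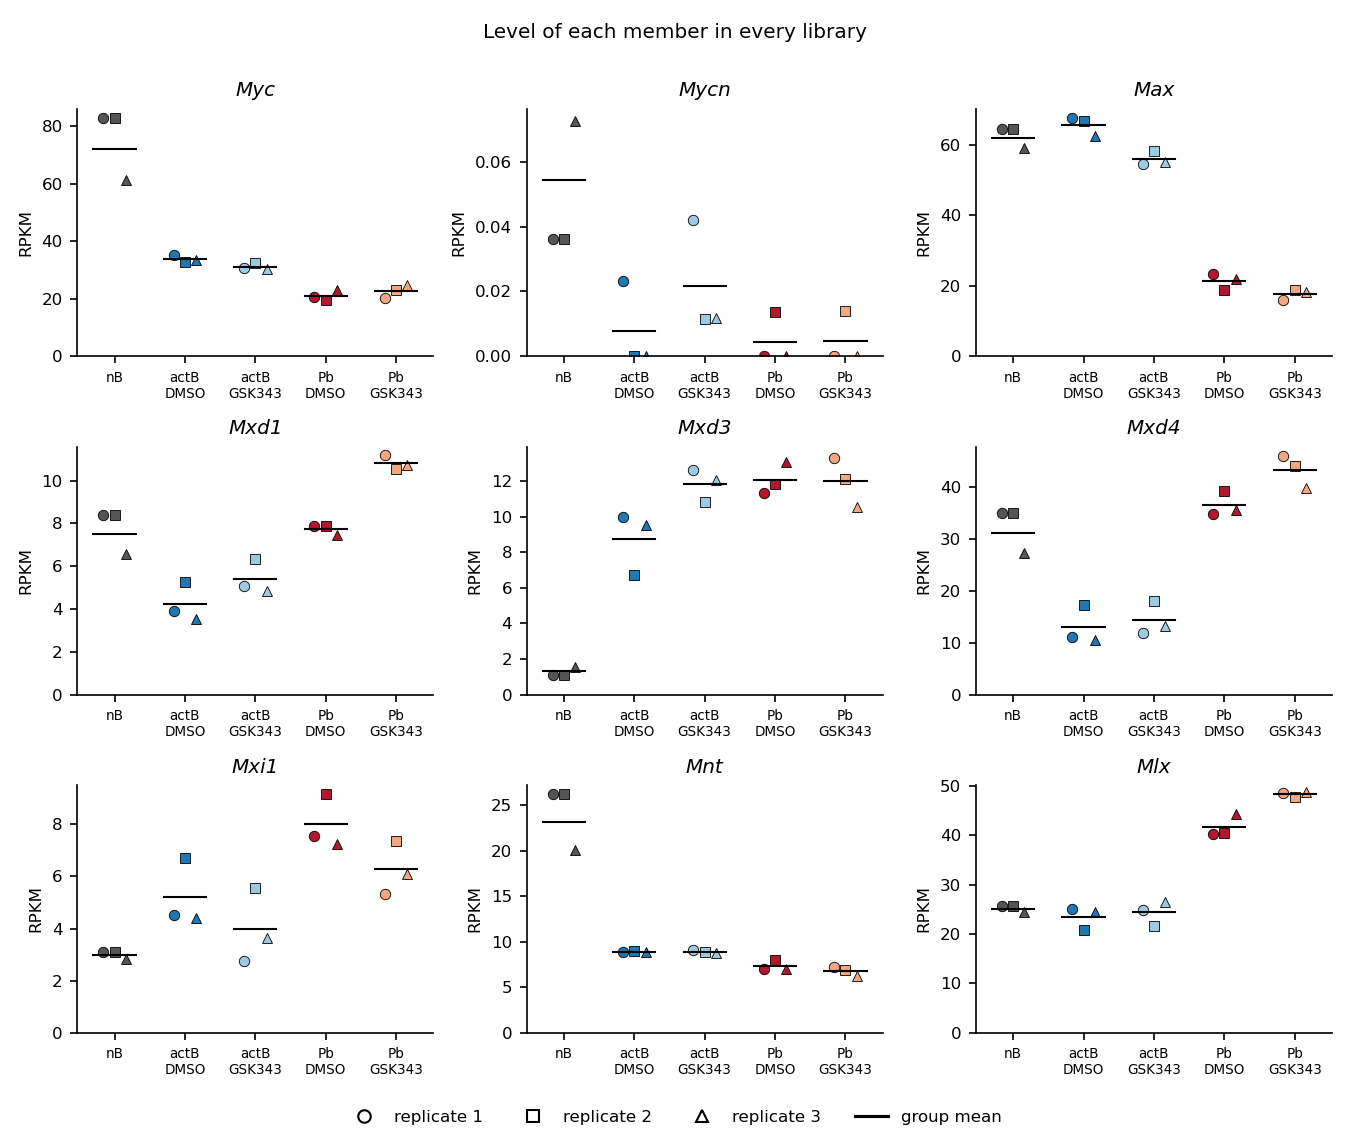
Level of the 9 members in RPKM (vertical axes from 0, a scale for each gene) in each of the 15 libraries by group, with the symbol giving the replicate number and the line the group mean (the first and second nB libraries counted once). Myc and Mnt were highest in nB, Max was low in both Pb groups, Mxd1 and Mxd4 were lowest in actB, and Mlx was highest in Pb with GSK343.

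In actB, replicate 2 was off the other replicates for several members in the same way with DMSO and with GSK343. Against the mean of replicates 1 and 3 on the log2 scale, *Mxd4* was higher by 0.67 and 0.52, *Mxi1* by 0.57 and 0.77 and *Mxd1* by 0.47 and 0.34, and *Mxd3* differed by -0.52 and -0.18. Without replicate 2 of every cultured group, an alternative chosen after seeing the data, the *Mxd3* difference between Pb and actB was lost (0.31, adjusted p = 0.0819), and every other call between stages in the 8 members stood.

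Counted together, 6 of the 8 tested members differed between actB and nB (2 higher and 4 lower), where 77.2% of all tested genes did (40.9% higher and 36.3% lower). All 8 differed between Pb and actB (5 higher and 3 lower) against 69.7% of all tested genes (27.3% higher and 42.4% lower). From nB to Pb, 6 differed (3 higher and 3 lower) against 80.6% (39.5% higher and 41.1% lower). With counts this small and backgrounds this high, the number of calls says little about the network, and the description rests on the direction and size of each member's change. The median log2 fold change from actB to Pb was 0.54 over the members and -0.12 over all genes tested, and the median over all genes moved to -0.00484 after median scaling, where 49.4% rather than 39.2% of called genes were higher. Of the members' directions between stages, none of those called was turned by median scaling, quantile normalization or edgeR.

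**Figure D2:**
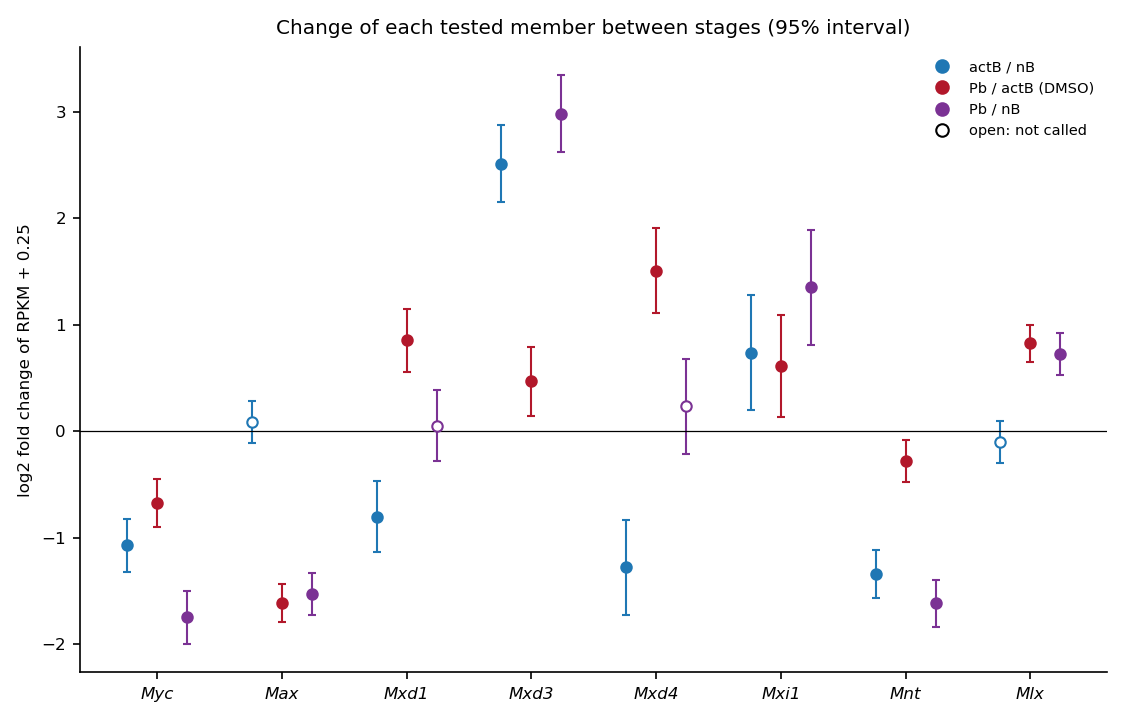
Log2 fold change of RPKM + 0.25 (vertical axis) of the 8 tested members for actB against nB, Pb against actB and Pb against nB, all without GSK343, with 95% intervals from limma; filled points were called. Max fell from actB to Pb (-1.61), Mxd4 changed by -1.27 and then 1.51, and Mxd3 rose by 2.51 at activation.

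Per unit of length, the balance of *Myc* to its antagonists shifted with stage. The summed RPKM of *Mxd1*, *Mxd3*, *Mxd4*, *Mxi1* and *Mnt* was 58.3 to 73.9 in nB, 36.9 to 45.0 in actB with DMSO and 68.6 to 76.1 in Pb with DMSO. The ratio of *Myc* to this sum was 1.05 to 1.12 in nB, 0.727 to 0.916 in actB and 0.258 to 0.327 in Pb, and with GSK343 it was 0.655 to 0.743 in actB and 0.246 to 0.339 in Pb. The stages did not overlap in this ratio. With the deposited lengths, *Mxd4* and *Mnt* made up most of the sum in nB (46.8 to 47.5% and 34.4 to 35.5%), whereas *Mnt* contributed only 9.98 to 10.5% in Pb with DMSO and *Mxd4* 50.5 to 51.5%.

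The ratio of *Max* to *Myc* plus the 5 antagonists was highest in actB and lowest in Pb. This ratio was 0.412 to 0.496 in nB, 0.860 to 0.921 in actB with DMSO and 0.196 to 0.261 in Pb with DMSO. It leaves out *Mga*, at a mean of 15.8 RPKM in nB, 12.9 in actB and 8.88 in Pb with DMSO. It also counts in full those antagonists that can pair with Mlx. These ratios describe RNA and rest on the gene lengths used. *Myc* was divided by a deposited length of 4025 bases, while its longest coding transcript in GENCODE vM1 has 2338, and with that length the *Myc* ratio would be 1.81 to 1.93 in nB, 1.25 to 1.58 in actB and 0.444 to 0.563 in Pb with DMSO. *Mxd4* was divided by 1179 bases, while its longest coding transcript has 3872. With that length for *Mxd4* alone, the summed antagonists would be 39.4 to 49.5 RPKM in nB, 29.6 to 33.0 in actB and 44.4 to 48.8 in Pb with DMSO, and *Mxd4* would make up 21.1 to 21.6% of the sum in nB and 23.7 to 24.5% in Pb. The ratio of *Max* to *Myc* plus the antagonists would then be 0.488 to 0.589, 0.990 to 1.03 and 0.275 to 0.358. The ratio of *Myc* to the sum would be 1.55 to 1.67, 0.992 to 1.14 and 0.402 to 0.504, and with both lengths replaced 2.68 to 2.88, 1.71 to 1.97 and 0.693 to 0.869. These lengths were tried after seeing the data. The order of the stages was the same in each ratio given, while the size of the ratios and the antagonist with the largest share were not. Comparisons of a gene with itself do not depend on its length.

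**Figure D3:**
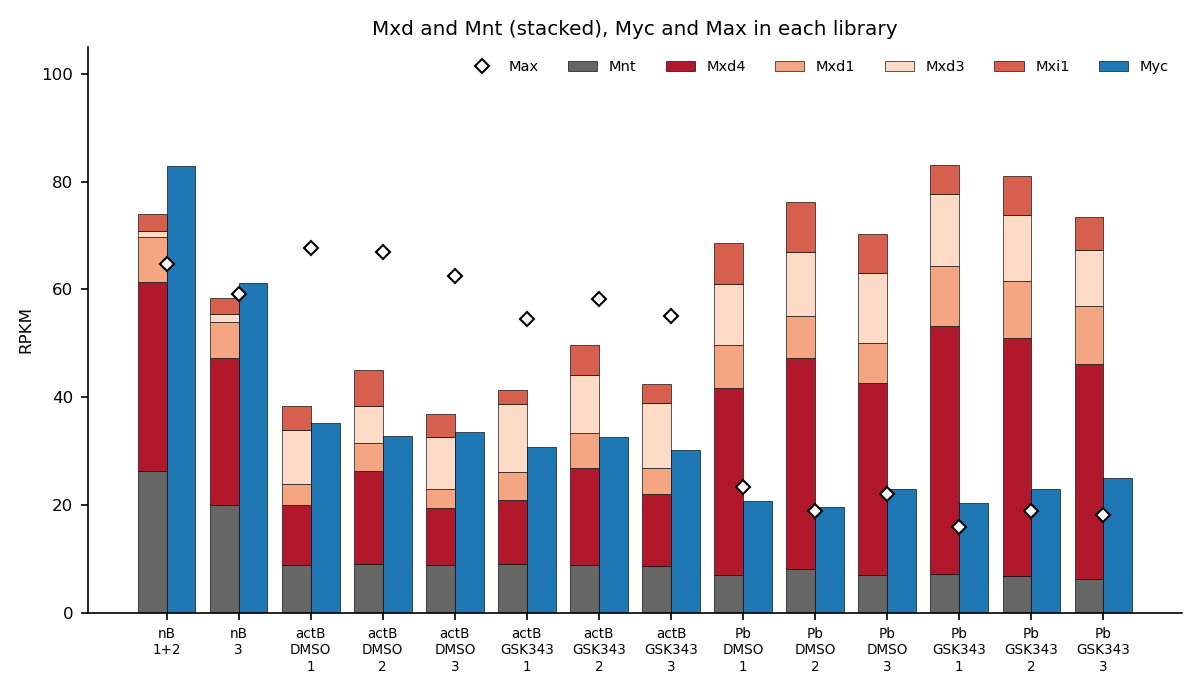
RPKM (vertical axis, from 0) in each of the 14 libraries, with nB 1 and 2 counted as 1: stacked bars give Mnt, Mxd4, Mxd1, Mxd3 and Mxi1, blue bars Myc and diamonds Max. The stacked sum was 36.9 to 45.0 in actB with DMSO and 68.6 to 76.1 in Pb with DMSO, while Myc was at 19.6 to 24.9 and Max at 16.0 to 23.3 across both Pb groups.

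*Myc* did not differ detectably between GSK343 and DMSO in either cell type. With GSK343, *Myc* was at 30.8, 32.5 and 30.2 RPKM in actB and at 20.4, 23.0 and 24.9 RPKM in Pb. The actB libraries lay just below those with DMSO and the Pb libraries overlapped theirs. The log2 fold changes were -0.12 ± 0.10 in actB (95% interval -0.34 to 0.11, adjusted p = 0.555) and 0.11 ± 0.10 in Pb (-0.12 to 0.33, adjusted p = 0.562).

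The members called with GSK343 were *Mxd1* and *Max*, both in plasmablasts. *Mxd1* was at 11.2, 10.5 and 10.7 RPKM in Pb with GSK343, all above the 3 Pb libraries with DMSO (7.48 to 7.89 RPKM). It rose by 0.47 ± 0.14 on the log2 scale, or 1.39-fold (adjusted p = 0.0407; 0.00798 with the replicate block and 0.0343 with edgeR). The call was lost when any 1 of the 6 Pb libraries was left out (adjusted p 0.0722 to 0.120), although the fold change then stayed between 0.45 and 0.49, and also without a filter on low values (0.0685). In actB, *Mxd1* was at 5.06, 6.35 and 4.84 RPKM with GSK343, which overlapped the DMSO libraries because replicate 2 was the highest of each group. The difference of 0.35 ± 0.14 was not called (adjusted p = 0.129) but was with the replicate block (0.0350) and without actB DMSO replicate 2 (0.51, adjusted p = 0.0185). Within each replicate number *Mxd1* was higher with GSK343 in 3 of 3 pairs of actB libraries (0.26 to 0.42) and in 3 of 3 pairs of Pb libraries (0.41 to 0.51).

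*Max* was at 16.0, 18.9 and 18.1 RPKM in Pb with GSK343, and 1 of these libraries lay inside the range with DMSO (18.8 to 23.3 RPKM). It fell by 0.27 on the log2 scale (-0.27 ± 0.08, adjusted p = 0.0489). That call is close to the threshold: it was lost after median scaling (0.05004), with a pseudocount of 1 (0.0502), without a filter (0.0745), after quantile normalization (0.0661), without a trend (0.0611) and with Pb fitted alone (0.133), and in 4 of 6 fits that left out a Pb library (without replicate 1 or 3 of Pb with DMSO or of Pb with GSK343, adjusted p 0.0964 to 0.190). In actB, *Max* was at 54.6, 58.2 and 55.0 RPKM with GSK343, below all 3 DMSO libraries. This difference (-0.23 ± 0.08, adjusted p = 0.0933) was not called by limma and was called by edgeR (-0.26, adjusted p = 0.0470). Within replicate numbers, *Max* was lower with GSK343 in 3 of 3 pairs in actB and in 2 of 3 in Pb.

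*Mxi1*, *Mxd3* and *Mlx* were called where same-numbered libraries were compared with each other. *Mxi1* was lower with GSK343 in all 3 pairs of actB (-0.67 to -0.26) and of Pb (-0.48 to -0.24). Its fold changes of -0.40 ± 0.22 and -0.34 ± 0.22 had adjusted p = 0.303 and 0.362 without the block and 0.0261 and 0.0410 with it. *Mxd3* in actB was at 12.6, 10.9 and 12.0 RPKM with GSK343, above all DMSO libraries (0.44 ± 0.15, adjusted p = 0.0810; 0.0354 with the block), and in Pb it did not differ detectably (-0.01 ± 0.15, 95% interval -0.34 to 0.31, adjusted p = 0.972). *Mlx* in Pb was at 48.5, 47.8 and 48.8 RPKM with GSK343, above all DMSO libraries (0.21 ± 0.08, adjusted p = 0.113; 0.0322 with the block, and 0.0362 with the Pb groups fitted alone).

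*Mxd4* and *Mnt* were called neither with nor without the block. *Mxd4* was at 46.0, 44.2 and 39.9 RPKM in Pb with GSK343, above the DMSO range of 34.8 to 39.2 RPKM but with an interval of -0.15 to 0.64 for its log2 fold change of 0.25. *Mnt* differed by -0.000761 in actB (95% interval -0.20 to 0.20) and by -0.11 in Pb (-0.31 to 0.09).

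In all, 0 of 8 members were called between GSK343 and DMSO in actB by limma (3 had an unadjusted p under 0.05, and edgeR called 1), against 10.4% of all tested genes (8.2% higher and 2.16% lower). With the replicate block, 3 were called. After quantile normalization the higher genes made up 61.6% of those called across the table, against 79.1% here. In Pb, 2 of 8 were called (1 higher and 1 lower; 4 with the block), against 12.9% (7.9% higher and 5% lower). The response did not differ detectably between Pb and actB for any member (0 called, 0 at an unadjusted p under 0.05 and 0 by edgeR), where 0.248% of tested genes were called (0.0974% higher and 0.15% lower in Pb; 39.3% of the called genes were higher, or 63.6% after median scaling). The largest such difference, in *Mxd3*, was -0.46 (95% interval -0.91 to 0.00079, adjusted p = 0.556). Beside these values, the summed myeloid markers were at 4.14 to 5.44 RPKM in actB with DMSO and 8.31 to 14.1 RPKM with GSK343, of which *Itgam* made up 3.50 to 4.66 and 6.60 to 12.8, while *Lyz2* stayed at or below 1.13 RPKM. Stage markers also differed with GSK343. In Pb, *Sdc1* was at 28.8 to 30.4 RPKM with DMSO and 53.3 to 58.8 RPKM with GSK343. Of 5 plasmablast markers in Pb, 1 was called higher and 1 lower. Of 5 B lineage and 3 naive B cell markers, 2 each were called lower in Pb. In actB, 2 plasmablast markers were higher and 1 naive marker was lower. The part of such differences between the sorted cells in the changes with GSK343 was not tested.

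**Figure D4:**
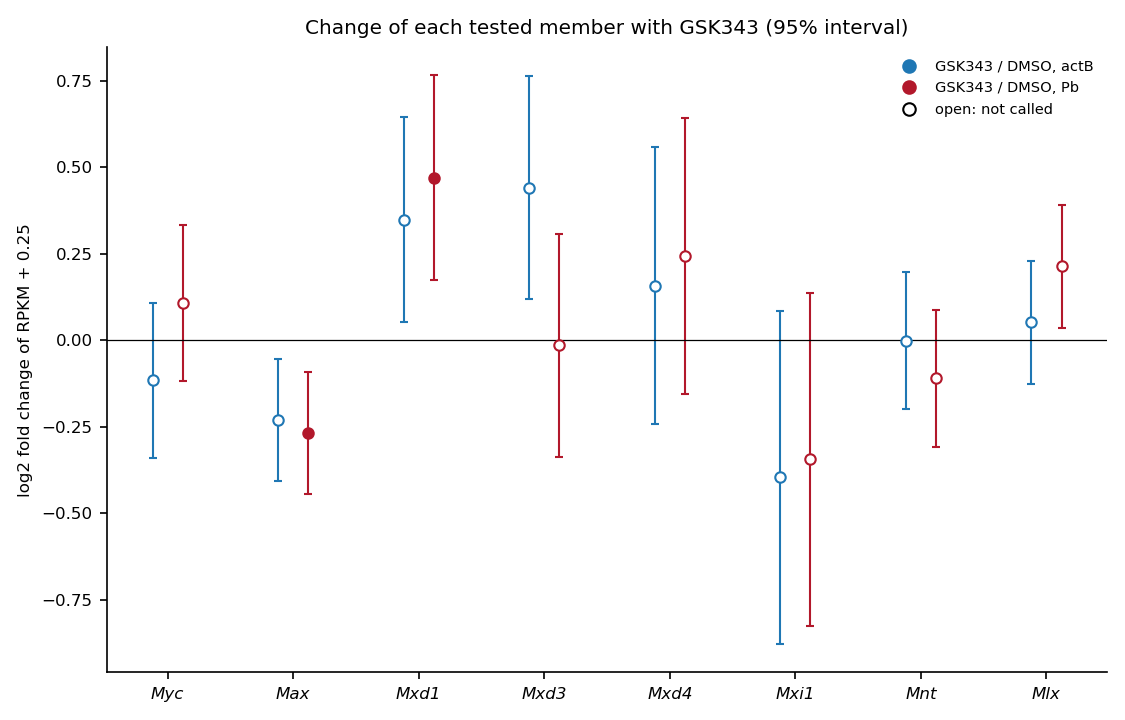
Log2 fold change of RPKM + 0.25 (vertical axis) with GSK343 against DMSO for the 8 tested members in actB and Pb, with 95% intervals from limma; filled points were called. The called changes were Mxd1 (0.47) and Max (-0.27), both in Pb, and the wide intervals of Mxi1 and Mxd4 include 0 in both cell types.

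With GSK343 present throughout, the step from actB to Pb had the same called directions as without it for 7 of the 8 members, and the groups differ in cytokine as well if the labels hold. *Mxd1* (0.98 ± 0.14), *Mxd4* (1.60 ± 0.18), *Mxi1* (0.67 ± 0.22) and *Mlx* (0.99 ± 0.08) rose, and *Max*, *Mnt* (-0.39 ± 0.09) and *Myc* (-0.45 ± 0.10) fell (adjusted p at most 0.0169). Of all genes tested, 70.5% were called (26.4% higher and 44.2% lower), and the higher genes made up 37.4% of those called, or 49.7% after median scaling. *Mxi1* overlapped between these groups and lost its call without actB replicate 1 (0.45, adjusted p = 0.0821) or Pb replicate 2 (0.55, 0.0684), and with the 2 groups fitted alone (0.0519). The ratio of *Mxd1* to *Max* was 0.339 to 0.418 in Pb with DMSO and 0.558 to 0.7004 in Pb with GSK343, against 0.0569 to 0.0783 and 0.0879 to 0.109 in actB.

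Genes that textbooks list as direct Myc targets rose at activation, while *Myc* itself was lower in actB than in nB. All 30 nucleolar and ribosome production genes were higher in actB than in nB, where 40.9% of all tested genes were (median log2 fold change 0.82, against 0.05 over all tested genes). *Npm1*, a nucleolar chaperone, rose from a mean of 349 to 940 RPKM (1.42), and *Nop58* (1.39) and *Nop2* (1.33), which modify ribosomal RNA, rose alike. Of 18 genes for nucleotides and polyamines, 17 were higher and 1 was lower (median 1.49), among them *Rrm2* (4.40) and *Tyms* (3.47), which supply DNA precursors. Of 15 genes for glycolysis and nutrient uptake, 14 were higher (median 2.25), among them the glycolytic enzymes *Tpi1* (3.59) and *Pgk1* (3.24) and the amino acid transporter *Slc7a5* (2.86). All 10 cell cycle targets were higher (median 2.03), as were 12 of 12 general proliferation genes (median 4.15).

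In plasmablasts most nucleolar genes fell, while the counts of the other lists lay nearer to those of all tested genes, of which 42.4% were lower and 27.3% higher. From actB to Pb with DMSO, 26 of the 30 nucleolar genes were lower and 1 was higher (median -0.65, against -0.12 over all tested genes), with *Npm1* at -0.97, *Dkc1*, which modifies ribosomal RNA, at -0.94 and *Rrp12*, which exports ribosomal subunits, at -0.85. Of the nucleotide and polyamine genes, 10 of 18 were lower and 3 higher, and the 3 with the largest change, *Impdh2* (-1.06), *Ppat* (-1.04) and *Paics* (-0.95), make purines. Of the glycolysis and uptake genes, 6 of 15 were lower and 3 higher, near the shares of all tested genes (14 were called with the block). The transporters *Slc7a5* (0.99) and *Slc1a5* (0.94) rose and the enzyme *Eno1* (-0.59) fell. Of the 10 cell cycle targets, 2 were higher and 2 lower, and *Ccnd2*, cyclin D2, rose (0.47) while the replication helicase gene *Mcm7* fell (-0.36). Among 12 proliferation genes 2 were higher and 4 lower. Whether these genes followed the members was not tested.

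Cofactor genes of the network are given beside the shares of all tested genes above (40.9% higher and 36.3% lower at activation, 27.3% higher and 42.4% lower in Pb). Of 14 Myc coactivators, 5 were higher and 3 lower in actB than in nB, and 10 were lower and 1 higher in Pb than in actB (median -0.35), including the helicase *Ruvbl2* (-0.59) and the elongation kinase *Cdk9* (-0.51). Of 18 tested genes of the Sin3 and NCoR corepressor complexes through which Mxd proteins act, 8 were higher and 7 lower at activation, and 9 were lower and 2 higher in Pb, a share of lower genes near that of all tested genes. In Pb, the Sin3 subunit gene *Fam60a* (-1.45) and the histone deacetylase gene *Hdac1* (-1.26) fell most. *Hdac1* went from a mean of 127 RPKM in actB to 53.0 RPKM in Pb while *Mxd1* and *Mxd4* rose. Among 11 genes for Myc protein turnover, *Fbxw7*, a ubiquitin ligase subunit for Myc, rose from 11.7 to 24.2 RPKM (1.03 ± 0.07, adjusted p = 6.82e-08), and *Pim1*, a kinase of Myc, rose from 205 to 445 RPKM (1.12 ± 0.08, adjusted p = 9.34e-08). In that list 5 genes were higher and 1 was lower.

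Among 6 tested genes of the kind that Myc represses with Miz1, 2 were higher and 3 lower in actB than in nB, and 3 were higher and 2 lower in Pb than in actB, which at this list size cannot be told from the shares of all tested genes called (77.2% and 69.7%). *Cdkn2b*, the p15 cell cycle inhibitor, rose at both steps (2.57 and 1.61), from a mean of 0.328 RPKM in nB to 3.21 in actB and 10.3 in Pb. *Gadd45a*, a stress response gene, fell and then rose (-1.63 and 0.90). *Txnip*, the best known Mlx target and an inhibitor of glucose uptake, fell from 262 RPKM in nB to 72.0 RPKM in actB (-1.88, adjusted p = 5.93e-06) and rose to 119 RPKM in Pb (0.74, adjusted p = 0.00514). *Arrdc4*, the other Mlx target on the list, was too low to be tested.

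With GSK343 most of these genes were not called. In Pb, the corepressor list and the glycolysis and uptake list held a larger share of lower genes than all tested genes. Over all tested genes, 5% were lower and 7.9% higher in Pb, and 2.16% were lower and 8.2% higher in actB. In Pb, 5 of the 18 corepressor genes were lower, among them *Ing2* (-0.32), *Arid4b* (-0.28) and *Ing1* (-0.22), which encode Sin3 complex subunits, and 4 of the 15 glycolysis and uptake genes were lower, among them *Pfkp* (-0.59), *Tpi1* (-0.57) and *Ldha* (-0.39). The block raised the second count to 9. Of the nucleolar genes, 1 of 30 was lower in each cell type, and it was *Polr1a*, the large subunit of RNA polymerase I, both times (-0.29 in actB and -0.22 in Pb). The inhibitor genes of the Miz1 list were divided in Pb, with *Cdkn1a* higher (0.77, adjusted p = 0.0182) and *Cdkn1b* lower (-0.59, adjusted p = 0.00274). In actB the 2 called genes of that list, *Cdkn2b* (-0.43) and *Cdkn1b* (-0.37), were both lower. Of the corepressor genes, 2 were lower and 0 higher in actB.

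**Figure D5:**
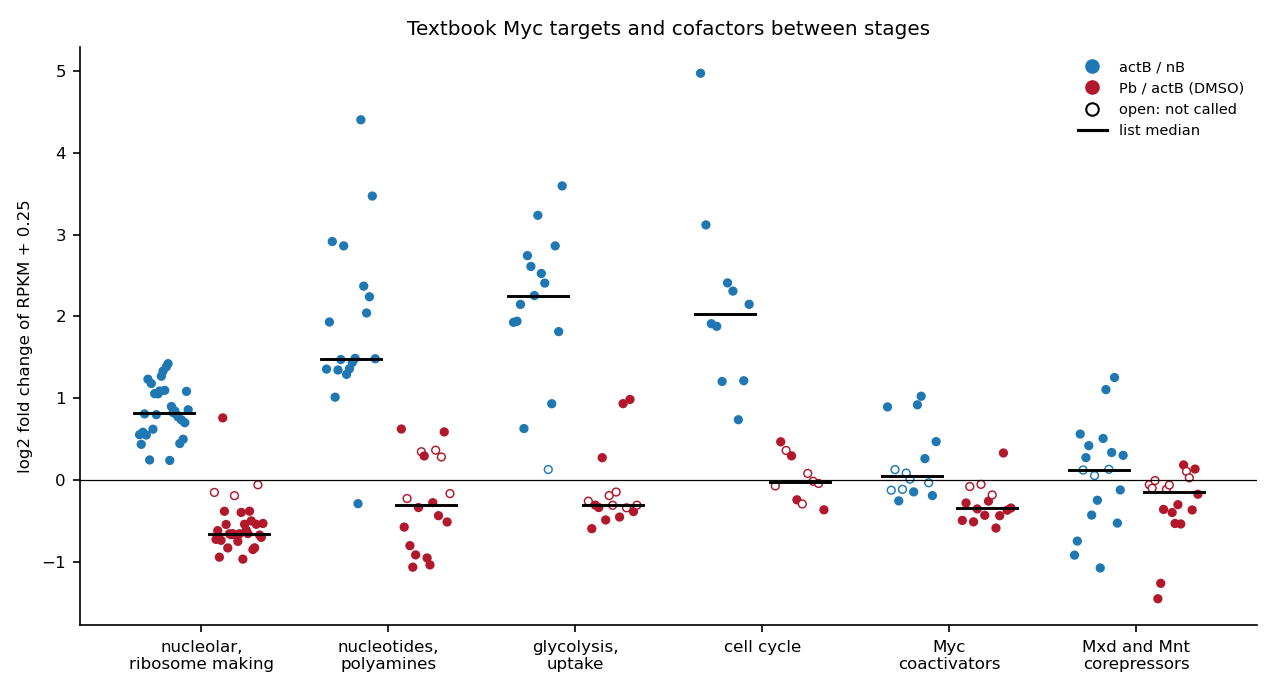
Log2 fold change of RPKM + 0.25 (vertical axis) of every tested gene of 6 lists, for actB against nB and for Pb against actB with DMSO, with list medians as lines and filled points for called genes. Nucleolar genes had a median of 0.82 at activation and -0.65 in Pb, while the cell cycle targets had a median of -0.03 in Pb.

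Across the 14 libraries, the genes whose log2 levels ran most like those of each member are given as a description, since the points share libraries and groups. Among 9060 genes, *Myc* was most like *Rela* (Pearson r = 0.985), *Pias4* and *Zfp622*, and *Max* most like *Crtc2* (0.996), *Rab11a* and *Cd83*. *Mxd1* was most like *Ctns* (0.971), *Gfi1* and *Scamp2*, and *Mxd3* most like *Arhgef39* (0.993), *Knstrn* and *Poc1a*. *Mxd4* was most like *Pdk2* (0.989), *Rnf122* and *St7l*. *Mxi1* was most like *Hdac7* (0.966), *Crem* and *Gvin1*, and *Mnt* most like *Kdm2a* (0.992), *Ssh1* and *Prr12*. *Mlx* was most like *Yif1a* (0.991), *Pigt* and *Ftl1*. Within the network, *Mxd1* and *Mxd4* ran together (0.954), *Myc* ran with *Mnt* (0.945) and against *Mxd3* (-0.910), and *Max* ran against *Mlx* (-0.974).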

How the data were processed

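Polyadenylated RNA was sequenced as stranded paired-end libraries. Per the labels and the study's methods, the authors mapped reads to mm9 with TopHat2 and deposited 1 value per gene and library. The deposited values sum to 1000000 in every library and are therefore RPM, library reads scaled to that total, although the table is named as RPKM. In every library at least 99.97% of values above 0 are whole multiples of 1 read. The tolerance was 0.05 reads plus a small allowance that grew with the depth of the library. RPKM was computed from RPM and the deposited lengths. The 92 genes without a symbol (at most 0.0905% of reads) were left out.

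Genes with at least 1 RPKM in at least 3 of the 15 libraries were fitted together in limma (version 3.58.1, R 4.3.3), with 5 groups, 14 libraries, log2(RPKM + 0.25), a mean-variance trend and Benjamini-Hochberg adjustment over 11299 genes. p-values measure the spread between these libraries, and what the replicate numbers of the labels stand for is not given in the sources used here. Same-numbered libraries deviated together (correlations of 0.158 to 0.713 in 18 pairs, against -0.603 to 0.370 in 36 pairs of different numbers), so the number was taken to pair them in the fit with a block. Deviations were taken from the mean of each group, which lowers the correlations between different numbers. All negative values involved replicate 2, and replicates 1 and 3 correlated at 0.0737 to 0.370. The values thus set replicate 2 apart more clearly than they pair replicates 1 and 3. Recovered read counts were tested with edgeR (4.0.16, TMM, quasi-likelihood) over 11146 genes, which called 8760 genes between actB and nB, 7812 between Pb and actB, and 1241 in actB and 1499 in Pb with GSK343. The scripts were tested on simulated data.

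The members and gene lists were chosen with earlier results of these data known. Genes named beside the members are, per list and comparison, at most the 3 called genes of largest absolute change, all genes of short lists, and the 3 genes most correlated with each member. A gene that this rule would name is not reported here. Positions are from GENCODE vM1 (mm9) and promoters from RefSeq (GRCm38.p6).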

Additional observations from a re-analysis of the deposited data

How the results depend on the processing

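Pseudocounts of 1 and 0.05, other filters on low values, median scaling, quantile normalization, no trend, robust moderation, groups fitted alone, all columns as deposited, the replicate block, edgeR with and without the block, and fits without single libraries turned no called member's direction. The 4 counts of members between stages stayed within 1.5 times. In actB, 0 members called with GSK343 became 3 with the replicate block, 1 with edgeR and 4 with both, 0 or 1 without single actB libraries, and 3 without replicate 2 of every cultured group, an alternative chosen after seeing the data. In Pb, 2 became 4 with the replicate block and with edgeR and the block, 1 with a pseudocount of 1, median scaling, quantile normalization or no trend, 0 without a filter, 0 or 1 without single Pb libraries and 3 without replicate 2 of every cultured group. Where the number of genes tested differs, the adjustment differs too; otherwise the cause was not tested. Over the members' fold changes under all alternatives, 33 values lost a call, 18 gained one and 1101 stayed on their side of the threshold, and 61 of the list counts moved by over 1.5 times while 891 did not. Over all genes the block raised the calls with GSK343 from 1170 to 2248 in actB and from 1458 to 2626 in Pb. edgeR with the block gave 2717 and 2814, fits of actB alone gave 386, and fits without libraries 608 to 1740 in actB and 690 to 1977 in Pb. The 28 genes whose response differed between Pb and actB became 139 with the block, 233 with edgeR and the block, 48 with all columns as deposited, 18 after quantile normalization, 4 with groups fitted alone and 0 to 146 without libraries. Without an nB library, the remaining nB sample was assumed to vary like the other groups. With 2 or 3 samples a group, a change whose interval includes 0 could not be told from no change. Adjustment over all genes left some changes with intervals clear of 0 uncalled as well.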
